A study of Mus musculus with 4 samples.

Results

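Phosphate and vitamin D handling of the kidney was followed through 9 genes, chosen by name and all present among the 18383 genes of the deposited count table. They are the sodium-phosphate cotransporter genes Slc34a1, Slc34a3, Slc20a1 and Slc20a2, the hormone receptor genes Pth1r, Kl and Vdr, and the vitamin D hydroxylase genes Cyp27b1 and Cyp24a1. The cells were renal primary tubular epithelial cells from the kidney cortex of C57BL/6 mice aged 8 weeks, with 2 libraries per genotype. KM mice were MYCfl/fl KspCre/+ and KMS mice were SETD2fl/fl MYCfl/fl KspCre/+, so both genotypes carried the MYC allele and the Cre transgene, and KMS carried floxed alleles of the histone H3 lysine 36 methyltransferase SETD2 in addition. Cre is driven by the promoter of kidney-specific cadherin, an adhesion protein of tubular epithelium. The design text of the series names other genotypes and more replicates than these labels, and the labels were followed here. The comparison asks which of these transcripts differ between the libraries labelled KM and KMS.

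Filtered phosphate is taken back mainly in the proximal tubule, where sodium-phosphate cotransporters sit in the brush border. Parathyroid hormone acts through PTH1R, and the bone hormone FGF23 acts through FGF receptors with klotho as co-receptor; both remove the cotransporters from the membrane. CYP27B1 makes active vitamin D and CYP24A1 breaks it down. Parathyroid hormone induces the former, while FGF23 represses it and induces the latter, and active vitamin D itself induces CYP24A1 through the vitamin D receptor.

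Libraries held 18639040 and 14955148 counts in KM replicates 1 and 2 and 9780050 and 8886496 counts in KMS replicates 1 and 2. Setd2 had 54.2 and 57.9 CPM (the count per 1e+06 of the library's TMM-adjusted total) in KM against 58.3 and 49.1 CPM in KMS. Which exons were floxed is not in the labels, so a count over the whole gene does not check the genotype. Myc had 5.28 and 6.96 CPM in KM against 6.10 and 2.18 CPM in KMS, and the groups overlapped. Replicate 1 of each genotype came from a female by its RNA, with 12967 and 4363 counts of Xist in KM and KMS and 1 and 0 counts summed over 4 genes of the Y chromosome. The other replicates came from males, with 10 and 1 counts of Xist and 3410 and 1471 of the Y genes. The female pair and the male pair are therefore also given separately. KM replicate 2 was the highest library for 6 of 7 markers of tubular injury, all but Clu. Havcr1 had 109 CPM there and 9.003 CPM in KM replicate 1, and Lcn2 had 414 and 36.2 CPM. The sum of the 7 was 4072 and 9495 CPM in KM replicates 1 and 2, of which Spp1 alone gave 3540.1 and 8470.3 CPM, and 3158 and 1168 CPM in KMS.

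All 18 markers of the proximal tubule were detected in every library, as the label of the cells requires. Their summed level was 15797 and 11079 CPM in KM against 31745 and 28078 CPM in KMS, so the groups did not overlap. The 6 markers of the loop of Henle and distal convoluted tubule summed to 3318 and 875 CPM in KM against 5806 and 3361 CPM in KMS. The 7 markers of the collecting duct summed to 474 and 321 CPM in KM against 413 and 268 CPM in KMS. Of these, 3 had a positive log2 fold change and 4 a negative one. Markers from outside the tubule were detected too. The 5 of podocytes summed to 1893 and 917 CPM in KM against 2216 and 2058 CPM in KMS. The 5 of endothelium summed to 924 and 778 CPM in KM against 950 and 532 CPM in KMS. Leukocyte markers (9 of 9 detected) summed to 429 and 899 CPM in KM against 311 and 198 CPM in KMS. The 7 markers of fibroblasts and pericytes summed to 142 and 187 CPM in KM against 89.0 and 79.5 CPM in KMS. The 6 urothelial markers summed to 13.0 and 104 CPM in KM against 1.24 and 2.18 CPM in KMS, where Krt5 and Krt15 were at 0 in both libraries. In the bulk RNA of these libraries, fewer cells of a type and less RNA per cell cannot be told apart. The part of these markers in the values below was not tested.

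By value, Slc34a1, Slc34a3, Kl, Pth1r and Vdr were higher in both KMS libraries than in both KM libraries. Slc20a1 and Cyp24a1 were lower in both, and Slc20a2 and Cyp27b1 overlapped. None of the 9 passed edgeR's quasi-likelihood test after Benjamini-Hochberg adjustment over 15002 genes, of which 0.0333% passed. An unadjusted p under 0.05 was reached by 4 members that were higher (12.2% of all tested genes) and 2 that were lower (14.1%). Groups did not overlap for 5 members that were higher in KMS and 2 that were lower, against 29.1% and 31.3% of tested genes. The DESeq2 Wald test called 6 of 9 members and 11.8% of tested genes, and limma-voom called 0. Each of those 6 DESeq2 calls was lost without KM replicate 2, when 0 members and 1.27% of tested genes passed. That fit was chosen after seeing the data and leaves 1 KM library. DESeq2 was not run with any other library left out. The DESeq2 SE for Slc34a1 was 0.33 in that fit and 0.24 with all libraries. Without KM replicate 2 the DESeq2 log2 fold change went from 1.26 to 1.10 for Slc34a1 and from 1.85 to 1.31 for Slc34a3. For Kl it went from 1.24 to 0.91 and for Pth1r from 0.68 to 0.53. It went from -1.17 to -0.73 for Slc20a1 and from -1.22 to -0.56 for Cyp24a1. In edgeR without KM replicate 1, the log2 fold change was 1.43 for Slc34a1, 2.72 for Slc34a3 and 1.68 for Kl. It was -1.503 for Slc20a1 and -1.67 for Cyp24a1. Without KM replicate 2 the edgeR values of these genes were 1.09, 1.30, 0.91, -0.73 and -0.57, in the same order. Without KMS replicate 1 or KMS replicate 2 these genes kept their directions. Each of these fits leaves 1 library in a genotype. With sex as a term, edgeR called 3 members (Slc34a3, Slc20a1 and Cyp24a1) and 5.43% of tested genes.

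**Figure D1:**
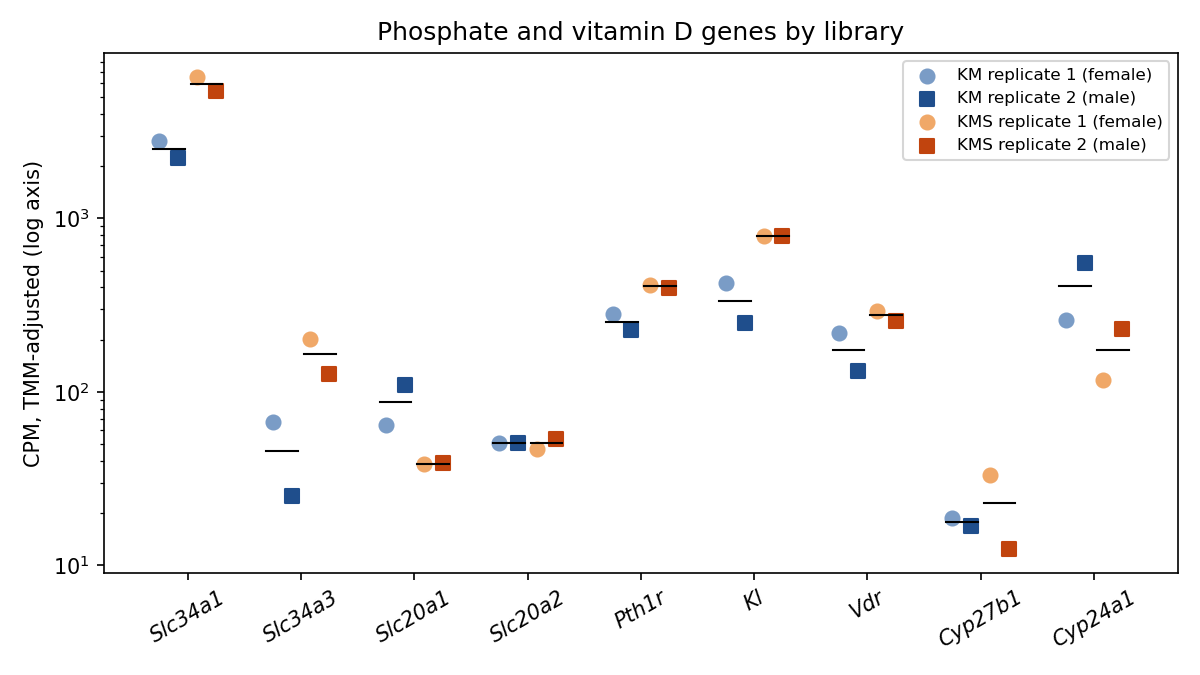
CPM (vertical log axis) of the 9 genes in each of the 4 libraries, with sex as read from Xist and Y-linked genes; black lines are group means. The KMS points of Slc34a1, at 6573 and 5406 CPM, lie above the KM points at 2811 and 2230.0 CPM, and those of Cyp24a1 lie below.

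Slc34a1 encodes NaPi-IIa, the cotransporter that carries most renal phosphate reabsorption in the mouse. The gene (chromosome 13, 55399622 to 55414695, GRCm38.p6) had 52143 and 36520 raw counts in KM against 63605 and 44545 in KMS, although the KM libraries were deeper. This corresponded to 2811 and 2230.0 CPM in KM against 6573 and 5406 CPM in KMS. Both KMS libraries were above both KM libraries, with means of 2520.4 ± 411 and 5989 ± 825 CPM (SD, n = 2). The log2 fold change was 1.25 ± 0.37 (SE), which did not pass (edgeR adjusted p = 0.115; DESeq2 adjusted p = 1.1e-05, and 0.0575 without KM replicate 2). The log2 ratio was almost the same between the female libraries, 1.23, and between the male ones, 1.28. In the authors' deposited table, where 2.22% of genes had an adjusted p under 0.05, Slc34a1 had a log2 ratio of 1.28 with an adjusted p of 4.2e-04.

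Slc34a3 encodes NaPi-IIc, the second cotransporter of the proximal brush border. The gene (chromosome 2, 25228897 to 25234270) had 66.8 and 25.1 CPM in KM against 203 and 126 CPM in KMS. The groups did not overlap, and in each genotype the male library was the lower one. Its log2 fold change of 1.84 ± 0.49 (SE) was the highest of the 9 values in the edgeR fit and did not pass (edgeR adjusted p = 0.102; DESeq2 adjusted p = 0.0015, and 0.0578 without KM replicate 2). Between female libraries the log2 ratio was 1.59 and between male libraries 2.31. Each library held 42.1 and 88.9 counts of Slc34a1 per count of Slc34a3 in KM against 32.4 and 42.8 in KMS, so that KM replicate 2 stood above the other 3 libraries.

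Slc20a1 and Slc20a2 encode Pit-1 and Pit-2, sodium-phosphate cotransporters found in most cell types and first known as receptors of retroviruses. Slc20a1 (chromosome 2, 129198773 to 129211615) had 64.3 and 110.3 CPM in KM against 38.3 and 39.0 CPM in KMS. The KMS libraries lay close together below both KM libraries, of which replicate 2 was the higher. At -1.18 ± 0.28 (SE), the log2 fold change did not pass (edgeR adjusted p = 0.0930; DESeq2 adjusted p = 0.0072, and 0.676 without KM replicate 2). Between female libraries it was -0.74 and between male libraries -1.49. Without KM replicate 2 the edgeR value was -0.73, and without KM replicate 1 it was -1.503. Slc20a2 (chromosome 8, 22476700 to 22569616) had 50.6 and 50.8 CPM in KM against 47.0 and 53.9 CPM in KMS, so the genotypes overlapped. Its log2 fold change was -0.01 with a 95% interval of -0.41 to 0.40 (edgeR adjusted p = 0.978). Slc20a2 overlaps Smim19 on the opposite strand, which had 965 counts in the 4 libraries together, and the reads of the pair can be told apart only if counting used strand. Opposite-strand genes that overlap Slc34a1 (Pfn3), Cyp24a1 (Pfdn4) and Pth1r (Myl3) had 24, 129 and 18 counts in all.

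Among counts of the 4 cotransporter genes, Slc34a1 made up 93.9% and 92.3% in KM against 95.8% and 96.1% in KMS. The share of Slc20a1 was 2.15% and 4.56% in KM against 0.559% and 0.693% in KMS. Within each library the ratio of Slc20a1 to Slc20a2 counts, which does not depend on depth, had values of 1.27 and 2.17 in KM against 0.815 and 0.723 in KMS. Both KMS libraries were below both KM libraries in that ratio, for which the smallest exact two-sided permutation p is 0.333. In the same libraries the summed injury markers were lower in KMS, as given above, and a link between them and Slc20a1 was not tested.

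The region before the start of 3 of these genes is shown because 2 of them, Slc34a1 and Kl, were higher in KMS by a like amount and the third, Slc20a1, was lower; the genes were picked after their values were seen. Each line gives the 250 bases before a RefSeq start on the plus strand of GRCm38.p6, 5′ to 3′, with capitals on CACGTG, the E-box letters that MYC with MAX can bind. The regions are chr13:55399398-55399647 for Slc34a1, chr5:150952357-150952606 for Kl and chr2:129198523-129198772 for Slc20a1.
Slc34a1: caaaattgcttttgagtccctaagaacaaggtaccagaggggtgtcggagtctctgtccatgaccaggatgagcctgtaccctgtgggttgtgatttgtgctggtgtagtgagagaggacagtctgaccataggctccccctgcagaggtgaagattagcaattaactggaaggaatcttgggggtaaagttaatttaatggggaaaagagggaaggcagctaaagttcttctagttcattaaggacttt
Kl: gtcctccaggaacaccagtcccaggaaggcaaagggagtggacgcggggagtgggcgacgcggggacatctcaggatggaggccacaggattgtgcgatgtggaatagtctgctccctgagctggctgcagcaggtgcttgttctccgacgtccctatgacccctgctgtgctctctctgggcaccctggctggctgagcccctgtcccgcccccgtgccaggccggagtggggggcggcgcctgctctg
Slc20a1: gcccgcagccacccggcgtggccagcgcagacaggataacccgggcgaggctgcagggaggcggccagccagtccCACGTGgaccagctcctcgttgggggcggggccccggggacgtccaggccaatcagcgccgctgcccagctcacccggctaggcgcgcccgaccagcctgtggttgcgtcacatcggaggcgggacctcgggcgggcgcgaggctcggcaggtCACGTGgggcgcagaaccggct
CACGTG, which reads the same on both strands, occurs at 175 to 170 and at 22 to 17 bases before the start of Slc20a1. It is absent from the other 9 of 10 windows of the 7 members that had a window, and 6.02% of 32851 windows of this length hold it. DR3, the paired half-site of the vitamin D receptor, was searched on both strands and found in 0 of the 10 windows, against 0.04% of all. Slc20a2 and Cyp24a1 had no window, so neither gene was searched for any of these motifs. TATAAA, also searched on both strands, was found in 0 of 10, against 12.4% of all. The Slc20a1 window shown holds 29 CpG dinucleotides, that of Kl 13 and that of Slc34a1 1, where the median over all windows is 6. A second Slc20a1 window, before another RefSeq start, holds 5. The Slc34a1 window ends at 55399647, past the first base of the gene at 55399622.

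Pth1r encodes the receptor of parathyroid hormone and its related peptide. The gene (chromosome 9, 110722085 to 110747145) had 283 and 226 CPM in KM against 416 and 398 CPM in KMS. The KMS libraries were close together above both KM libraries, with means of 255 ± 40.0 and 407 ± 12.7 CPM (SD, n = 2). At 0.67 ± 0.23 (SE), the log2 fold change did not pass (edgeR adjusted p = 0.139; DESeq2 adjusted p = 0.0254, and 0.838 without KM replicate 2). Between female libraries it was 0.55 and between male libraries 0.81.

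Kl encodes alpha-klotho, which turns FGF receptors into receptors of FGF23 and is most abundant in the distal convoluted tubule. The gene (chromosome 5, 150952607 to 150993817) had 7839 and 4080 raw counts in KM against 7681 and 6495 in KMS, which is 423 and 249 CPM in KM against 794 and 788 CPM in KMS. The KMS libraries were nearly equal, while the KM libraries differed from each other and lay below. A log2 fold change of 1.23 ± 0.32 (SE) resulted, which missed the threshold (edgeR adjusted p = 0.0999; DESeq2 adjusted p = 0.0011, and 0.173 without KM replicate 2). Between female libraries the log2 ratio was 0.91 and between male libraries 1.66. In the authors' deposited table Kl had a log2 ratio of 1.26 with an adjusted p of 8.9e-04. Kl and Slc34a1 were the only members under 0.05 there. The summed distal markers and the summed proximal markers given above were both lowest in KM replicate 2, as was Kl.

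Vdr encodes the nuclear receptor of active vitamin D. The gene (chromosome 15, 97854427 to 97908296) had 218 and 132 CPM in KM against 294 and 257 CPM in KMS. The groups did not overlap, and KM replicate 2 was the lowest library. Its log2 fold change, 0.65 ± 0.29 (SE), was not called (edgeR adjusted p = 0.215, DESeq2 adjusted p = 0.137). Between female libraries the log2 ratio was 0.43 and between male libraries 0.96. Without KM replicate 2 the edgeR value was 0.34, and without KM replicate 1 it was 1.07. In its change over the 4 libraries Vdr was nearest to Pth1r among the members, at a Euclidean distance of 0.30 between centred log2 values.

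Cyp27b1 encodes the 1-alpha-hydroxylase that makes active vitamin D. The gene (chromosome 10, 127048246 to 127054884) had 18.7 and 17.0 CPM in KM against 33.3 and 12.4 CPM in KMS. KMS replicate 1 was the highest library and KMS replicate 2 the lowest, so the KM libraries lay between them. The log2 fold change of 0.36 ± 0.44 (SE) had a 95% interval of -0.72 to 1.44 (edgeR adjusted p = 0.636). Its log2 ratio was 0.82 between the female libraries and -0.44 between the male ones, and without KMS replicate 1 the fitted value was -0.49.

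Cyp24a1 encodes the 24-hydroxylase that breaks down active vitamin D and its precursor. The gene (chromosome 2, 170482957 to 170497145) had 4808 and 9109 raw counts in KM against 1130 and 1903 in KMS, which is 259 and 556 CPM in KM against 117 and 231 CPM in KMS. Both KMS libraries were below both KM libraries, and in each genotype the male library was the higher one. On the log2 scale the difference was -1.23 ± 0.47 (SE), which was not called (edgeR adjusted p = 0.171; DESeq2 adjusted p = 0.0464, and 0.992 without KM replicate 2). Between female libraries the log2 ratio was -1.15 and between male libraries -1.27. The edgeR value was -0.57 without KM replicate 2 and -1.67 without KM replicate 1.

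The balance of breakdown against synthesis overlapped between the genotypes. Within a library, Cyp24a1 counts per Cyp27b1 count numbered 13.9 and 32.8 in KM against 3.51 and 18.7 in KMS. In each genotype the male library was the higher one. Counts of Cyp24a1 per count of Vdr were 1.19 and 4.22 in KM against 0.397 and 0.898 in KMS. Both KMS libraries were below both KM libraries in that ratio, for which again no exact permutation p can be below 0.333.

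**Figure D2:**
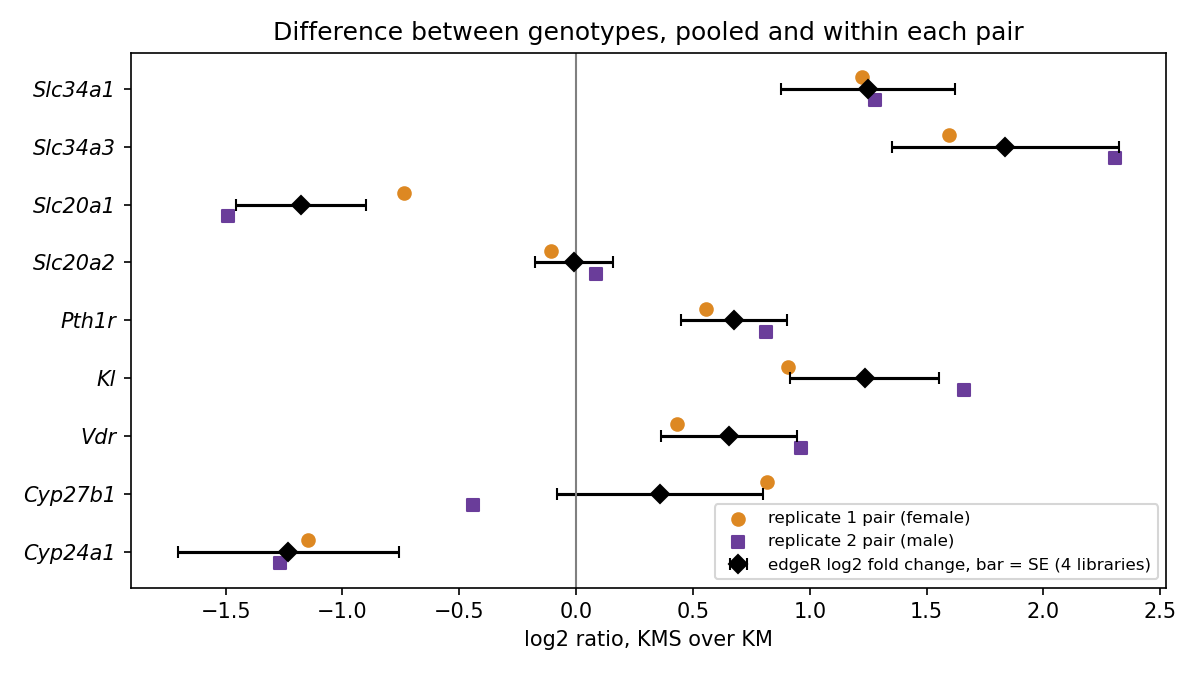
Log2 ratio of KMS over KM (horizontal axis) for each gene, as the edgeR estimate over 4 libraries with its SE, and within the female and the male pair of libraries, whose sex was read from the RNA. Cyp27b1, at 0.82 and -0.44, and Slc20a2, at -0.11 and 0.084, have pairs on both sides of 0, and the other 7 genes do not.

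Levels of different genes were compared as CPM per kilobase of annotated exon. In KM, Slc34a1 was highest at 539 ± 87.8 (SD, n = 2), followed by Cyp24a1 at 115 ± 59.0, Pth1r at 87.0 ± 13.7, Kl at 36.0 ± 13.1 and Vdr at 31.0 ± 10.8. Slc34a3 at 19.5 ± 12.5, Slc20a1 at 15.6 ± 5.83, Slc20a2 at 8.16 ± 0.021 and Cyp27b1 at 6.92 ± 0.461 came last. Neighbours that overlapped in KM were Cyp24a1 with Pth1r, Kl with Vdr, Vdr with Slc34a3, and Slc34a3 with Slc20a1. In KMS the levels per kilobase were 1281 ± 176 for Slc34a1, 139 ± 4.33 for Pth1r, 84.8 ± 0.418 for Kl and 69.7 ± 22.9 for Slc34a3. Those of Cyp24a1 and Vdr were both 48.8, with SDs of 22.7 and 4.65. Cyp27b1 at 8.87 ± 5.74, Slc20a2 at 8.12 ± 0.781 and Slc20a1 at 6.93 ± 0.078 came last. Neighbours that overlapped in KMS were Kl with Slc34a3, Slc34a3 with Cyp24a1, Cyp24a1 with Vdr, and Cyp27b1 with Slc20a2. By mean level Cyp24a1 was the second of the 9 in KM and the fifth in KMS, while Slc34a1 was the first in both.

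Because proximal tubule markers were themselves higher in KMS, each gene was also set against them within a library, as counts per 1000 counts of the 18 markers. Slc34a1 then had 178 and 201 in KM against 207 and 193 in KMS, and Kl had 26.7 and 22.5 in KM against 25.0 and 28.1 in KMS. On this scale the groups of both genes overlapped. A gene of equal CPM in both genotypes is lower in KMS on this scale, because the markers it is divided by were higher there. Slc34a3 remained higher in both KMS libraries, with 4.23 and 2.27 in KM against 6.38 and 4.49 in KMS. Pth1r had 17.9 and 20.4 in KM against 13.1 and 14.2 in KMS, and Vdr had 13.8 and 11.9 in KM against 9.27 and 9.16 in KMS. Pth1r and Vdr were higher in KMS in CPM by less than the summed markers were, so their direction on this scale is opposite. Slc20a1, with 4.07 and 9.95 in KM against 1.21 and 1.39 in KMS, and Cyp24a1, with 16.4 and 50.2 in KM against 3.68 and 8.22 in KMS, were lower in KMS on both scales. Slc20a2 had 3.20 and 4.59 in KM against 1.48 and 1.92 in KMS. Cyp27b1 had 1.18 and 1.53 in KM against 1.05 and 0.441 in KMS. Both were lower in KMS on this scale alone, where the higher marker counts in KMS by themselves lower the value.

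**Figure D3:**
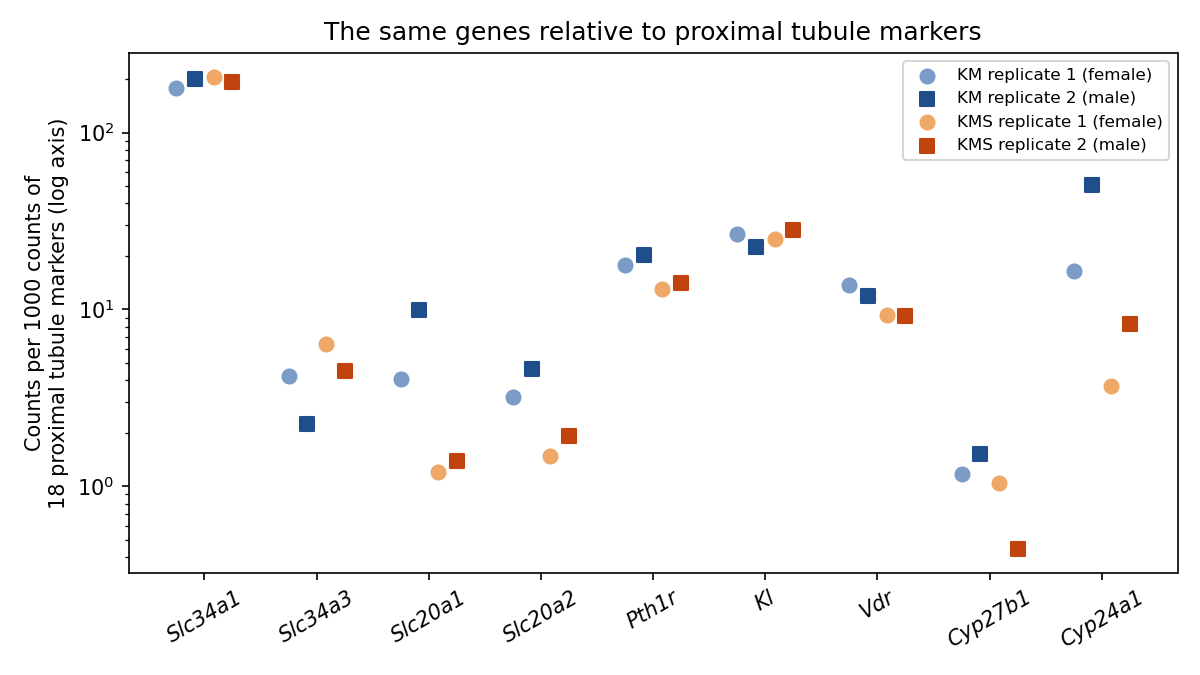
Counts of each gene per 1000 counts of 18 proximal tubule markers (vertical log axis) in each library, with sex as read from the RNA. The 4 points of Slc34a1 lie between 178 and 207, while those of Cyp24a1 run from 3.68 to 50.2.

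Among 8914 other genes with a regular symbol and a mean of at least 10 CPM, those whose centred log2 values over the 4 libraries lay nearest to Slc34a1 were Car14, Kcp, Pdzk1ip1, Slc25a42 and Gpd1, at Euclidean distances of 0.10 to 0.15. Car14, a membrane-bound carbonic anhydrase gene, had 98.5 and 77.9 CPM in KM against 221 and 174 CPM in KMS. Nearest to Kl were Ddc, Ldhb, Pcbd1, Gchfr and Lrpap1, at 0.06 to 0.13. Ddc, the gene of aromatic amino acid decarboxylase, had 86.6 and 51.7 CPM in KM against 157 and 161 CPM in KMS. With 4 libraries many genes share such a pattern, and these names describe it only.

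Of 62 other genes of the pathway in 8 lists, 55 were in the table and 51 passed the filter on low counts, and 0 were called (edgeR adjusted p under 0.05, against 0.0333% of all tested genes). DESeq2 called 13 (11.8% of all tested genes), and 2 without KM replicate 2 (1.27% of all). Without KM replicate 1, edgeR called 12 (11.5% of all). An unadjusted p under 0.05 was reached by 15 that were higher in KMS (12.2% of all tested genes) and 5 that were lower (14.1%). The median log2 fold change of the 51 was 0.30, beside -0.01 over all tested genes, with 35 positive and 16 negative.

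The 5 scaffold genes of the brush border, whose proteins hold NaPi-IIa in place, were all positive at a median of 0.68 on the log2 scale, and 0 were called. Slc9a3r1, which encodes NHERF1, had 150 and 142 CPM in KM against 243 and 265 CPM in KMS (log2 fold change 0.80 ± 0.19 SE, edgeR adjusted p = 0.0957). Pdzk1 had 32.4 and 25.0 CPM in KM against 49.7 and 42.5 CPM in KMS (0.68 ± 0.21 SE, edgeR adjusted p = 0.118). In both genes the KMS libraries were above the KM libraries. Slc9a3r2, at 0.37, and Ezr, at 0.036, overlapped between the genotypes. Shank2, at 1.62, rested on 12 and 5 counts in KM against 16 and 11 in KMS. Of 5 other phosphate carrier genes tested, 4 were positive and 1 negative, with a median of 0.29. Slc17a1, of the NPT1 transporter, had 253 and 245 CPM in KM against 367 and 619 CPM in KMS (0.99 ± 0.30 SE, edgeR adjusted p = 0.120). Slc34a2, the paralogue known from lung and intestine, had 3.77 and 21.9 CPM in KM against 3.72 and 1.70 CPM in KMS (-2.22 ± 0.86 SE, edgeR adjusted p = 0.173), and its high value was that of KM replicate 2 alone.

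In the FGF23 axis 3 of 5 tested genes were positive and 2 negative, at a median log2 difference of 0.13. Fgfr4, an FGF receptor of the proximal tubule, had 22.5 and 18.2 CPM in KM against 34.5 and 33.4 CPM in KMS (0.73 ± 0.20 SE, edgeR adjusted p = 0.104). Fgfr2 had 32.1 and 55.3 CPM in KM against 17.1 and 16.1 CPM in KMS (-1.40 ± 0.29 SE, edgeR adjusted p = 0.0846). Fgfr3, named outside the rule after its values were seen, had 38.3 and 36.0 CPM in KM against 55.7 and 49.6 CPM in KMS (0.50 ± 0.17 SE, edgeR adjusted p = 0.138). Of the 3 FGF receptor genes tested, 2 were thus positive by value and 1 negative. Fgfr1, with 7 and 12 counts in KM against 4 and 6 in KMS, did not pass the filter on low counts and was not tested. Genes of parathyroid hormone signalling had a median of 0.12 over 5 tested, with Plcb1, a phospholipase C, at 1.19 and 2.02 CPM in KM against 3.72 and 1.94 CPM in KMS. Gnaq, of the G protein that activates it, had 2.59 and 3.24 CPM in KM against 2.38 and 1.58 CPM in KMS. Plcb1 rested on 22 and 33 counts in KM against 36 and 16 in KMS (0.83 ± 0.52 SE, edgeR adjusted p = 0.347). Gnaq rested on 48 and 53 counts in KM against 23 and 13 in KMS (-0.55 ± 0.42 SE, edgeR adjusted p = 0.445). Gnas, Pth and Pthlh, also on this list, were absent from the counts.

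Of 11 genes of vitamin D uptake, synthesis and receptor partners, 6 were positive and 5 negative, at a median log2 difference of 0.15, and 0 called. Amn, of the amnionless protein that anchors cubilin in the membrane, had 72.7 and 64.2 CPM in KM against 149 and 157 CPM in KMS (1.16 ± 0.18 SE, edgeR adjusted p = 0.0697). Cyp27a1, a mitochondrial sterol hydroxylase that can also act on vitamin D, had 43.2 and 30.4 CPM in KM against 66.7 and 63.5 CPM in KMS (0.82 ± 0.22 SE, edgeR adjusted p = 0.102). Both genes were higher by value in both KMS libraries.

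Renal calcium handling, which vitamin D and parathyroid hormone also govern, had the highest median of the 8 lists at 0.81, with 9 of 11 tested genes positive and 0 called. S100g, of the small calcium-binding protein calbindin-D9k and a known target of the vitamin D receptor, had 159 and 149 CPM in KM against 480 and 370 CPM in KMS (log2 fold change 1.46 ± 0.24 SE, edgeR adjusted p = 0.0697). Its groups were well apart. Cldn2, the claudin of the leaky proximal tight junction, had 362 and 296 CPM in KM against 630 and 601 CPM in KMS (0.90 ± 0.24 SE, edgeR adjusted p = 0.102). The vitamin D receptor targets S100g and Cyp24a1, a pair picked after values were seen, thus differed between the genotypes in opposite directions by value. No list of the receptor's targets was drawn up, so the pair does not stand for them. The 2 negative genes of the calcium list, named outside the rule, were Trpv6 and Atp2b1. Trpv6 had 5.93 and 64.7 CPM in KM against 2.89 and 2.67 CPM in KMS (-3.66 ± 1.09 SE). Its high value was that of KM replicate 2. Atp2b1 had a log2 fold change of -0.55 ± 0.24 (SE).

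Enzymes of inositol pyrophosphates, which report phosphate supply inside cells, were centred at a median log2 difference of -0.03 (5 genes). Ppip5k2 had 39.2 and 42.6 CPM in KM against 25.3 and 30.6 CPM in KMS (-0.55 ± 0.19 SE, edgeR adjusted p = 0.142), and Ip6k1 had 73.5 and 68.1 CPM in KM against 92.8 and 81.7 CPM in KMS (0.30 ± 0.17 SE, edgeR adjusted p = 0.314). The list of pyrophosphate enzymes and stanniocalcins had a median of 0.75 over 4 tested genes, of which 3 were positive. Stc2, a stanniocalcin, had 5.82 and 5.86 CPM in KM against 1.86 and 2.18 CPM in KMS (-1.53 ± 0.35 SE, edgeR adjusted p = 0.0918). Enpp1, which makes pyrophosphate, had 26.1 and 17.7 CPM in KM against 41.4 and 41.6 CPM in KMS (0.92 ± 0.24 SE, edgeR adjusted p = 0.0999).

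**Figure D4:**
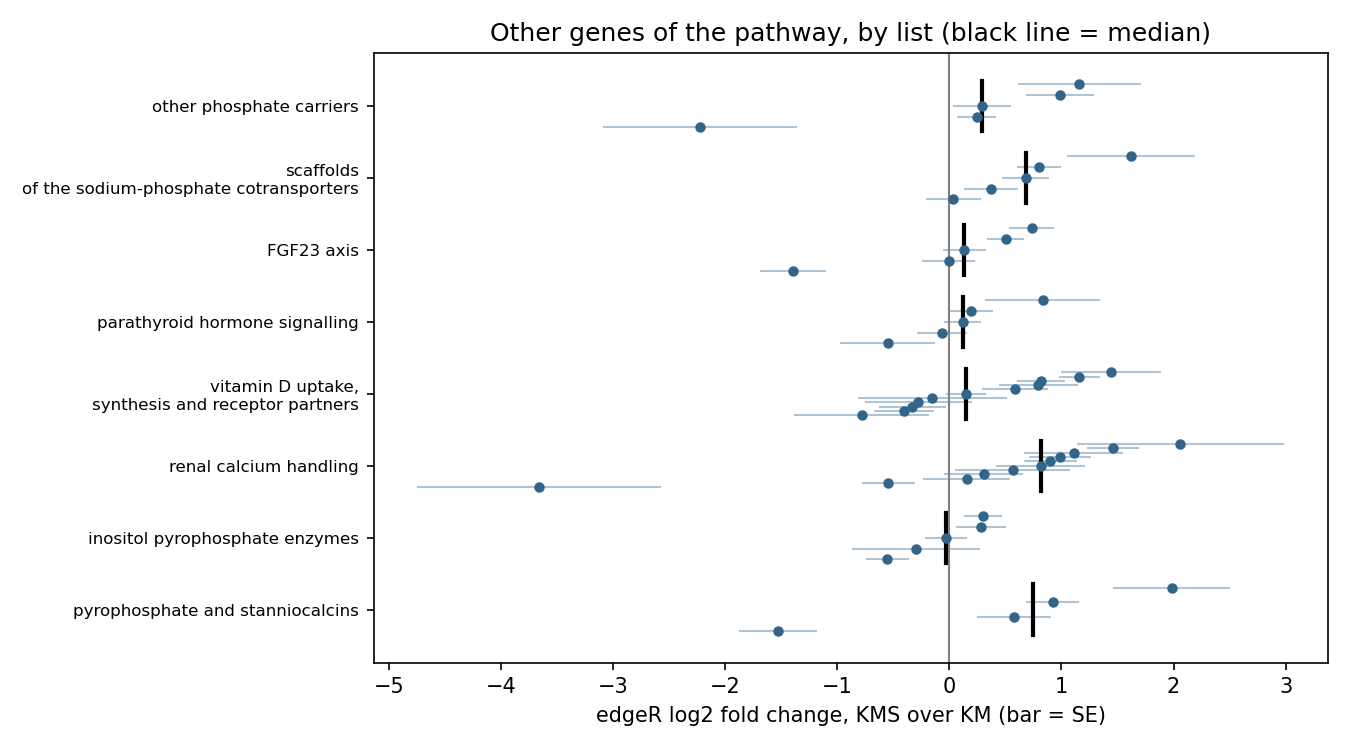
Log2 fold change of KMS over KM from edgeR (horizontal axis, bars are SE) for the 51 tested genes of 8 pathway lists; each point is a gene and each black line the median of its list. Medians run from -0.03 for inositol pyrophosphate enzymes to 0.81 for renal calcium handling.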

How the data were processed

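Per the labels' protocols, poly(A) RNA of Trizol extracts, cleared of DNA by DNase, was made into directional libraries. Per the submitters' processing notes, the tools were HISAT2, StringTie, MACS2 2.1.1, FastQC, Trimmomatic 0.35 and cutadapt 1.9.1, with no role stated, and the build was GRCm38 (mm10). How reads were counted, and whether by strand, is not stated in the sources used here. What the authors deposited are raw read counts per gene for each library. Their table also holds the authors' scaled mean signal per group, its ratio, the log2 of that ratio, and a p-value with adjusted p-value from a test not named in the sources used here.

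Counts were tested here with edgeR 4.0.16 in R 4.3.3 (TMM factors, filterByExpr with minimum count 10 and total 15, quasi-likelihood F test, genotype as the only term, Benjamini-Hochberg over 15002 genes, threshold 0.05). SEs of log2 fold changes come from the F statistic. CPM is the count per TMM-adjusted total, and log2 ratios within a pair of libraries add 0.5 CPM. DESeq2 1.42.0 and limma-voom 3.58.1 were alternatives, with other scalings, no filter, a replicate block and each library left out. Total counts of 8886496 to 18639040 put 3 counts at 0.161 to 0.338 CPM per library. Each genotype held a female and a male library by their RNA, hence separate animals, so the spread behind the p-values includes any difference between the sexes. Positions and sequences are RefSeq's on GRCm38.p6, where 7 of 9 genes had a promoter window, and exon lengths are GENCODE M21's.

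The 9 genes, the lists and the naming rule were chosen with earlier results of these data known. The rule named all 9 genes, of each list the called genes or else the 2 of smallest p, and the 5 genes nearest to Slc34a1 and to Kl. S100g's pairing with Cyp24a1 and the 3 printed promoters were chosen after values were seen. A second table that repeats ratios of raw means was not used here.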

Additional observations from a re-analysis of the deposited data

Results flagged for a closer look

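The female and the male pair of libraries pointed in opposite directions for 2 of the 9 genes. Cyp27b1 had a log2 ratio of KMS over KM of 0.82 between female libraries and -0.44 between male ones. Slc20a2 had -0.11 and 0.084, both close to 0. Each pair holds 1 library per genotype, so the difference between pairs was not tested. Pairs of opposite sign occurred in 28% of the 15002 tested genes.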

How the results depend on the processing

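The edgeR fit called 5 of all genes, 0 of the 9 members and 0 of the pathway genes. Library totals gave 3 calls over all genes and limma-voom 1. The DESeq2 Wald test gave 1767 over all genes, 6 members and 13 pathway genes. Without KM replicate 2, an alternative chosen after seeing the data, DESeq2 gave 185, 0 and 2. A threshold of 0.10 gave 1216, 2 and 6. With each library left out in turn, calls ran from 0 to 1786 over all genes, 0 to 5 members and 0 to 12 pathway genes; where 1 library of a genotype is left, it is assumed to vary like the other genotype. With the replicate block there were 815 calls over all genes, 3 members (Slc34a3, Slc20a1 and Cyp24a1) and 5 pathway genes. Equal replicate numbers coincide with equal sex, so this is the same fit as the term for sex. The labels name no other link between equal numbers, and the deviations of such libraries correlated at 0.0657 across genes without Xist and the Y genes. With KMS replicate 2 left out, Cyp27b1 had 0.92 and Slc20a2 -0.092. Of 108 member values under alternatives, 4 changed sign: Slc20a2 to 0.018 without a filter, to 0.12 without KMS replicate 1 and to 0.0039 in DESeq2 without KM replicate 2, and Cyp27b1 to -0.49 without KMS replicate 1. The cause was not tested. Each member had at least 102 counts in every library, while 2 libraries per genotype leave little to measure their spread.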
